A study of Mus musculus with 3 samples.

Results

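The E protein genes Tcf3, Tcf4 and Tcf12 and the Id inhibitor genes Id1, Id2, Id3 and Id4 were followed in RNA sequencing of mouse bone marrow hematopoietic stem and progenitor cells (HSPCs). These 7 genes were taken by symbol from the 24421 gene symbols of the deposited count files, and all 7 have an entry. There was 1 group, the control, with 3 libraries numbered by the replicate number in their titles. The mice were C57BL/6 with the genotype given as Cicflox/flox + tamoxifen, so every library carried floxed Capicua (Cic) alleles and tamoxifen exposure. The labels name no Cre recombinase, do not explain the prefix UCK of the sample titles, give no age, and do not say whether each library came from its own animal. Any spread between libraries may therefore be technical. The study asked what Capicua loss does to T cell development and leukaemia, and its other mouse group was not analysed here, so no contrast between genotypes is given. Cells enriched on beads through c-Kit were sorted as c-Kit+ Sca-1+ cells lacking Ter119, Gr-1, B220, CD11b, CD8a and CD4.

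E proteins are basic helix-loop-helix (bHLH) transcription factors. They pair through the helix-loop-helix fold with each other or with tissue-restricted bHLH partners and touch DNA at E-box sites through a stretch of basic residues before the first helix. Tcf3 encodes E12 and E47, Tcf4 encodes E2-2 and Tcf12 encodes HEB. Id proteins have the helix-loop-helix fold without the basic stretch, so a dimer of an Id and an E protein does not bind DNA. In blood formation E proteins are known for lymphoid specification, and Id2 and Id3 for limiting them in innate lymphoid cells, dendritic cells and T cells.

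The difference between the classes can be read from the coding strand around the start of the first helix, shown here for a pair of genes of each class. Each stretch has 75 bases, 13 codons before the aligned start of helix 1 and the first 12 codons of the helix. Capitals mark the codons for arginine or lysine. The start of helix 1 was set where the best local alignment of the Tcf3 and Id2 proteins begins, and not from a structure. Sequences are from GENCODE M21 transcripts on GRCm38, the assembly of mm10, and each lies within 1 coding exon.
Tcf3, chr10:80412924-80412998, minus strand: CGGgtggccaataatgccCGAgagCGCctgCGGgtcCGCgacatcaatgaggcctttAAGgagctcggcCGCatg
Tcf12, chr9:71856402-71856476, minus strand: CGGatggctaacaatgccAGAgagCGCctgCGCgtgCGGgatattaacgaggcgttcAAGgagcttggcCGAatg
Id2, chr12:25095864-25095938, minus strand: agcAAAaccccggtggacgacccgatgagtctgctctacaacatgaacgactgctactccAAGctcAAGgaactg
Id3, chr4:136143966-136144040, plus strand: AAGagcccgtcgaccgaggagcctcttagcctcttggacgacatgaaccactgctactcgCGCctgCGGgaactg
Before the helix, Tcf3 and Tcf12 each have 5 arginine or lysine codons of 13, while Id2 and Id3 each have 1 of 13. Tcf12 encodes the same residue as Tcf3 at 12 of the 13 positions before the helix, and Id2 and Id3 at 0. Because the start was placed where the alignment with Id2 begins, the low likeness of Id2 before it follows in part from that choice. Within the helix stretch, Tcf12 shares 12 of 12 residues with Tcf3, Id2 shares 2 and Id3 shares 3.

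The deposited values are raw read counts per gene. Libraries 1, 2 and 3 held 30718562, 25097769 and 30032593 of them on gene symbols, and values are given as CPM (counts scaled to a gene total of 1000000). A count of 0 allows 0.0977 to 0.1195 CPM depending on the library (3 counts), and this floor and the intervals below cover counting error only. Library 1 stood apart. The ribosomal RNA precursor Rn45s took 11.8% of its gene counts against 7.91% to 8.20% in the others, and it had the most genes over 2-fold away from another library (653 and 671, against 311 between libraries 2 and 3). The 10 HSPC markers, Kit and the Sca-1 gene Ly6a among them, all reached a mean of 1 CPM, beside 53.1% of all gene symbols. The marker median was 280 CPM. Cic was counted 3500 to 5158 times per library.

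The E protein genes were abundant in every library, and the Id genes were low. Among the Id genes only Id2 had a mean above 1 CPM, Id1 and Id3 had few counts, and Id4 had none. Of the 7 genes, 4 reached a mean of 1 CPM (Tcf3, Tcf4, Tcf12 and Id2), beside 53.1% of all gene symbols (12965 of 24421). In these bulk samples, fewer cells with a transcript and less of it per cell cannot be told apart.

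Tcf3 (chromosome 10, 80409514 to 80433647, minus strand) had 2665 counts in library 1, 2202 in library 2 and 2278 in library 3, which is 86.8, 87.7 and 75.9 CPM. The mean of these was 83.4 ± 6.60 CPM (SD, n = 3), rank 2710 among all gene symbols. Library 3 was lowest, and libraries 1 and 2 lay within each other's counting intervals (83.5 to 90.1 and 84.1 to 91.5 CPM). Tcf12 (chromosome 9, 71842688 to 72111871, minus strand) was counted 5943, 4192 and 4663 times, or 193, 167 and 155 CPM, with a mean of 172 ± 19.6 CPM. Its highest value was in library 1 and its lowest in library 3. Tcf4 (chromosome 18, 69343356 to 69689079, plus strand) was counted 8393, 5733 and 6689 times, or 273, 228 and 223 CPM. Its mean was 241 ± 27.7 CPM, and it ranked 714. Library 1 was again highest, and libraries 2 and 3 lay close together. The ranks of Tcf3 and Tcf4 given here are not scaled for length. Per kilobase of annotated exons, Tcf3 ranked 2134 and Tcf4 5085 among the 23384 gene symbols with a length. With gene totals, the highest library of each of the 3 genes was 1.16 to 1.25 times the lowest, and with ERCC spike-in scaling 2.04 to 2.23 times.

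Id2, an inhibitor known for innate lymphoid and dendritic cell development, was the only Id gene above 1 CPM. Id2 (chromosome 12, 25093799 to 25097140, minus strand) was counted 92, 39 and 63 times, or 2.99, 1.55 and 2.10 CPM, with a mean of 2.22 ± 0.728 CPM (SD, n = 3). Its highest library was 1.93 times its lowest, and its rank of 11861 placed it near the middle of all gene symbols. Id1 (chromosome 2, 152736251 to 152737410, plus strand), a gene known as a target of BMP signalling, was counted 10, 3 and 16 times, or 0.326, 0.120 and 0.533 CPM. Library 2 was at the floor, and the counting intervals of all 3 libraries overlapped (0.156 to 0.599, 0.0246 to 0.349 and 0.304 to 0.865 CPM). Id3 (chromosome 4, 136143497 to 136145755, plus strand), a brake on E proteins in T cells, was counted 5, 3 and 11 times, or 0.163, 0.120 and 0.366 CPM. Its library 2 count was at the floor as well, and its intervals overlapped in all 3 libraries. Id4 (chromosome 13, 48261228 to 48266026, plus strand) had a count of 0 in each library. The floor of 3 counts was 0.0977, 0.1195 and 0.0999 CPM in libraries 1, 2 and 3. The upper ends of the exact Poisson intervals were slightly higher, at 0.120, 0.147 and 0.123 CPM. The annotation has antisense genes over 82 and 171 exon bases of Id4, and the strand setting of the counting is not given in the sources used here.

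**Figure D1:**
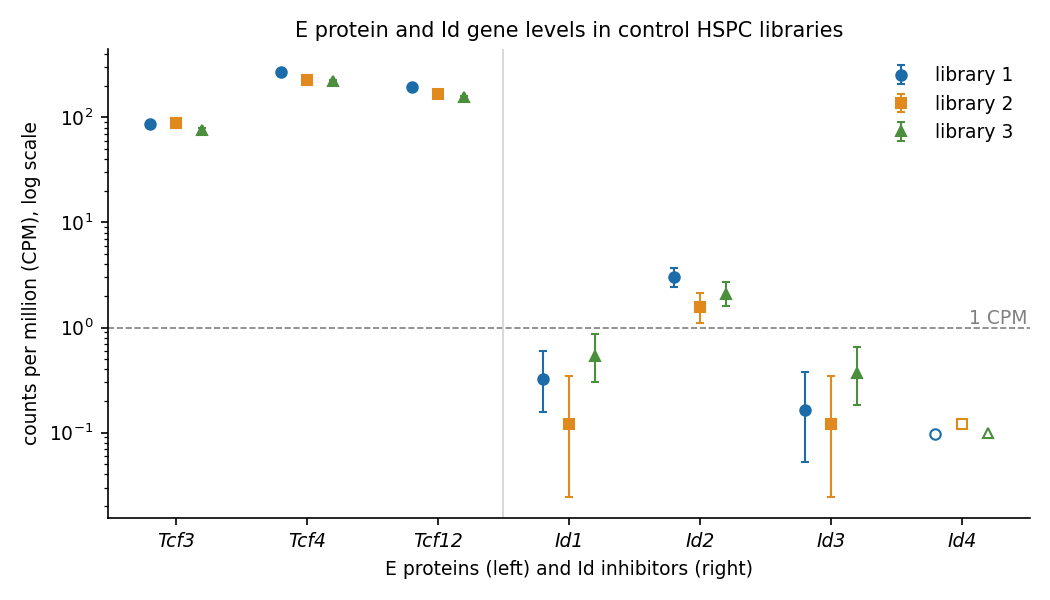
Levels of the E protein genes and Id genes in libraries 1, 2 and 3, in CPM on a log axis. Bars are exact Poisson 95% intervals, the dashed line marks 1 CPM, and open symbols mark the level that a count of 0 allows. The E protein genes lie between 75.9 and 273 CPM, Id2 between 1.55 and 2.99 CPM, and Id1 and Id3 under 1 CPM.

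Levels of different genes were compared per kilobase, with the union of annotated exons as length. On this scale the order was Tcf3 at 20.7 ± 1.63 CPM per kilobase, Tcf12 at 11.1 ± 1.26, Tcf4 at 8.82 ± 1.01, Id2 at 0.909 ± 0.299, Id1 at 0.281 ± 0.178, Id3 at 0.121 ± 0.0736 and Id4 at 0 (SD, n = 3 each). The median over all gene symbols with a length was 0.703 CPM per kilobase. Each gene was above the next in all 3 libraries, and with gene totals the ranges of neighbours over libraries overlapped for 1 pair, Id1 and Id3. Id1 was above Id3 in all 3 libraries by 0.31 ± 0.19 (SD, n = 3, log2), and their ranges were separate when library 2 or library 3 was left out. In library 2 both had 3 counts, so Id1 was higher there only through its shorter length (1160 against 1791 bases). Per kilobase of the longest coding sequence, Id1 was below Id3 in library 2 (0.237 against 0.335 CPM). With that length the mean difference between Id1 and Id3 was 0.037 (log2). Tcf12 and Tcf4 had ranges that were barely separate (lowest Tcf12 value 9.998, highest Tcf4 value 9.978). These ranges overlapped with TMM factors, with DESeq2 size factors or with totals without Rn45s. Compared within libraries, Tcf12 was above Tcf4 in all 3, by 0.31 ± 0.03 (SD, n = 3, log2). The mean difference was 0.31 under each of those 3 scalings as well. The step from the E proteins to the Id genes was the largest of the 6 in the order: Tcf4 exceeded Id2 by 2.74 on the log2(CPM per kilobase + 0.5) scale, against 0.87 for Tcf3 over Tcf12, 0.86 for Id2 over Id1 and 0.31 for each of the other steps. That scale understates steps between low genes. With signs of the within-library differences flipped in every way, an exact permutation test (two-sided) gave p = 0.25 for each of the 6 steps (adjusted p = 0.25), the smallest value that 3 libraries allow.

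The order within the E proteins depended on the length used, while the place of the E proteins above the Id genes did not under any of the 4 lengths tried. The annotation lists 62 transcripts for Tcf4, 21 for Tcf12 and 14 for Tcf3, and the union of exons came to 27382, 15529 and 4039 bases. The longest single transcripts have 8577, 6299 and 2950 bases. Per kilobase of the longest transcript, Tcf3, Tcf4 and Tcf12 had 28.3 ± 2.24, 28.2 ± 3.22 and 27.3 ± 3.11 CPM, with overlapping ranges. Per kilobase of the median coding transcript, Tcf4 came first at 131 ± 15.02, then Tcf12 at 76.2 ± 8.67 and Tcf3 at 29.4 ± 2.33. Per kilobase of the longest coding sequence the order was the same, at 116 ± 13.3, 81.2 ± 9.24 and 42.6 ± 3.37. Counts per gene symbol do not say which transcripts were read, so the files do not settle which E protein transcript was most abundant. Id2 was first among the Id genes under every length.

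**Figure D2:**
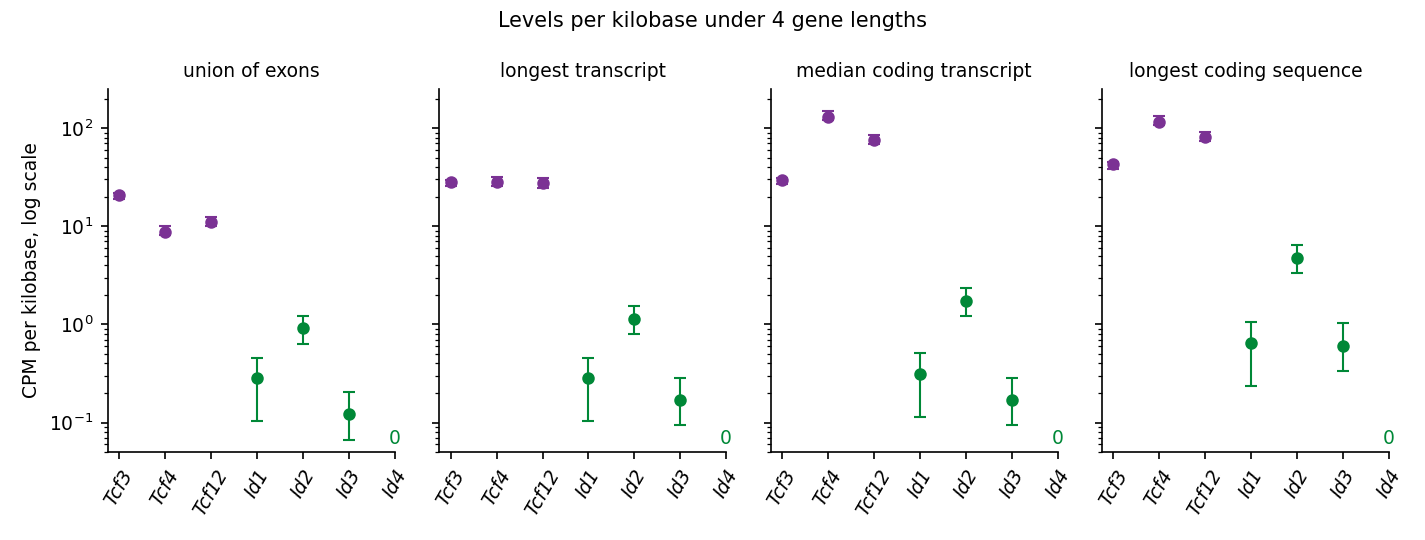
Mean CPM per kilobase of each gene on a log axis under 4 definitions of gene length, with bars from the lowest to the highest of the 3 libraries. E protein genes are purple and Id genes green, and a 0 marks Id4. Tcf3, Tcf4 and Tcf12 change places between panels, and all 3 stay above Id2 in each.

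Summed over each class, the E protein genes had 17001, 12127 and 13630 counts in libraries 1, 2 and 3, against 107, 45 and 90 counts for the Id genes. Per kilobase of exons, the E protein sum was 43.9, 40.8 and 36.9 CPM and the Id sum 1.60, 0.807 and 1.52 CPM. The ratio of the sums was 27.5, 50.6 and 24.2, a mean of 34.1 ± 14.4 (SD, n = 3). Library 2 had the highest ratio, and it also had the lowest Id sum. With the other lengths the mean ratio was 42.8 to 114. Tcf3 made up 51.0 ± 2.16% of the E protein sum per kilobase of exons, Tcf12 27.3 ± 1.02% and Tcf4 21.7 ± 1.17%. These shares depend on the length: with the longest transcript Tcf3 had 33.9% and Tcf4 33.6%, with the longest coding sequence 17.8% and 48.4%, and with the median coding transcript 12.5% and 55.4%. Id2 made up 70.7 ± 12.4% of the Id sum, Id1 20.2 ± 8.97% and Id3 9.12 ± 3.94%. These are ratios of RNA and not of protein.

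The E protein genes differed between libraries by more than the sampling of reads, as most genes did. A chi-square test of the 3 counts against gene totals, with Benjamini-Hochberg adjustment over 12965 genes, called all 4 tested genes of the set, beside 82.6% of all genes tested. Adjusted p was 2.2e-40 for Tcf4, 7.14e-29 for Tcf12, 5.73e-07 for Tcf3 and 0.00196 for Id2. Between libraries 1 and 2, the test called Tcf4, Tcf12 and Id2 but not Tcf3 (adjusted p = 0.747), beside 64.4% of genes. Between libraries 1 and 3 it called all 4, beside 67.3%, and between libraries 2 and 3 it called Tcf3 and Tcf12 but not Tcf4 (adjusted p = 0.235) or Id2 (adjusted p = 0.209), beside 51.4%. These reads were amplified and are not independent molecules, so this is a low bar. With genes under 1 CPM included, Id1 had an adjusted p of 0.0428 and Id3 of 0.13 in the chi-square test.

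None of the 4 genes was called more variable than genes of similar abundance. In edgeR's quasi-likelihood fit, the F test that sets a gene's dispersion against the trend gave adjusted p of 0.983 for Tcf4 and Tcf12, 0.987 for Tcf3 and 0.988 for Id2, and unadjusted p of 0.154 to 0.536. It called 0 of the 4, beside 0.00771% of all genes tested, which was 1 gene, Elane, while 593 genes had an unadjusted p under 0.05. DESeq2 marked 30 genes as dispersion outliers, and none of the 4 was among them. The trend placed the biological coefficient of variation at 10.5% to 11.6% for the abundance of the E protein genes and at 41.6% for that of Id2.

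In library 1, Tcf4, Tcf12 and Id2 were at 1.13, 1.13 and 1.35 times their 3-library means, and in library 3 Id1 and Id3 were at 1.63 and 1.69 times theirs. Other genes moved between the same libraries. The 17 immediate early genes, which cells switch on within minutes of a stimulus or of handling, summed to 679, 993 and 1605 CPM in libraries 1, 2 and 3. The 12 granulocyte and monocyte progenitor markers, with the granule enzyme genes Mpo and Elane, summed to 1293, 2226 and 3367 CPM, all 12 reaching 1 CPM. Most of that sum was Mpo, with 683, 1544 and 2403 CPM, and without it the sum was 610.5, 682 and 964 CPM. The members Csf3r, Ngp, S100a8 and S100a9 went the other way, with their highest level in library 1 (284, 80.1, 19.6 and 35.2 CPM). Both list sums were lowest in library 1 and highest in library 3, where Id1 and Id3 were highest and Tcf4 and Tcf12 lowest. The HSPC marker sum was 3492, 3190 and 2974 CPM, in the order of Tcf4 and Tcf12. The part of any of these in the levels of the E protein and Id genes was not tested. Spike-in RNA (ERCC) made up 1.48%, 0.954% and 0.582% relative to gene counts in libraries 1, 2 and 3. Scaled by it, Tcf4 was 187, 243 and 388 and Tcf12 132, 178 and 270 in units set to the CPM scale, so that library 1 was lowest in place of highest. Whether equal amounts were added is not stated.

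**Figure D3:**
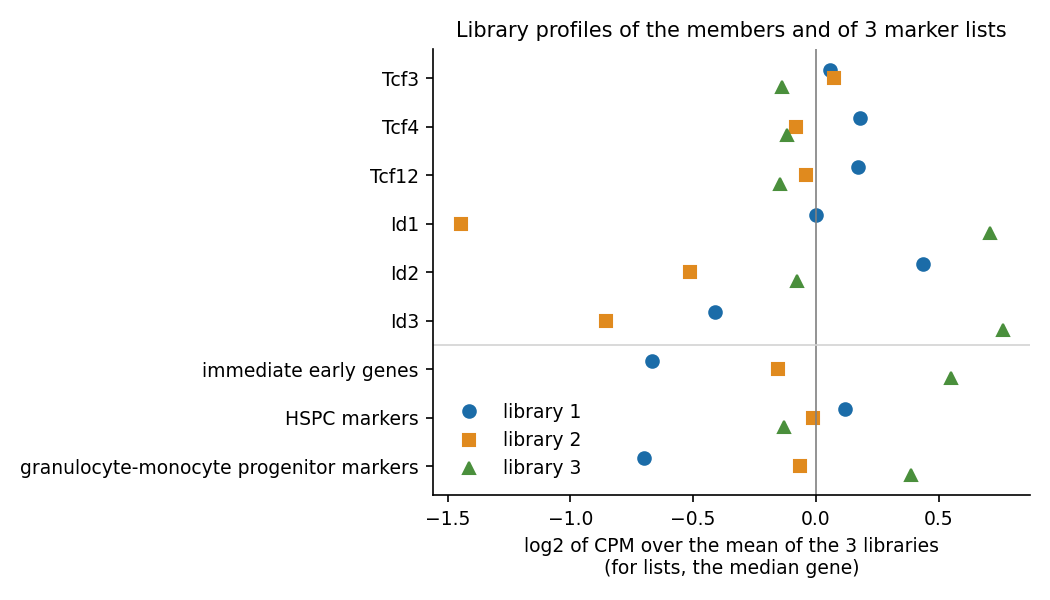
Level of each gene in libraries 1, 2 and 3 as the log2 ratio to its mean over the 3 libraries, with the median gene of 3 marker lists under the grey line. The 3 E protein genes stay near 0, Id1 and Id3 are highest in library 3, and the medians of immediate early genes and granulocyte and monocyte progenitor markers run from library 1 (lowest) to library 3 (highest).

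Most tissue-restricted bHLH partners of E proteins had no count at this depth, while Tal1 and Lyl1 were abundant. Of 28 listed partners, 4 reached 1 CPM and 18 had no count in any library, among them Nhlh1 and Neurod1, which act in the nervous system. Over all gene symbols, 53.1% reached 1 CPM, and 7093 of 24421 had no count in any library. Lyl1 was counted 2297, 1977 and 2665 times and had 44.9 CPM per kilobase of exons. Tal1, required for the first blood stem cells, was counted 4897, 3638 and 4215 times and had 33.9 CPM per kilobase. Both stood above Tcf3 (20.7), Tcf12 (11.1) and Tcf4 (8.82) per kilobase of exons, but this place depends on the length. Per kilobase of the median coding transcript Lyl1 and Tal1 both had 44.9 CPM, under Tcf4 (131) and Tcf12 (76.2) and above Tcf3 (29.4). Tcf15 and Bhlha15 were low, at 1.81 and 1.14 CPM per kilobase, and Tal2, the lowest with any count, was counted 3 times in library 2 and 0 times in libraries 1 and 3. The list median was 0 CPM, against 1.73 CPM over all gene symbols.

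Genes for cofactors of E protein complexes were broadly present. Among 17, 16 reached 1 CPM, beside 53.1% of all gene symbols, and the list median was 92.2 CPM. Lmo2, the bridging protein that joins Tal1 and E protein dimers to Ldb1 and Gata factors, was counted 15312, 12654 and 16611 times and had 239 CPM per kilobase. The acetyltransferase genes Crebbp and Ep300 had 33.4 and 27.0 CPM per kilobase, and Cbfa2t3, which encodes a corepressor of the ETO family, had 27.9. Ldb2 was lowest, at 0.248 CPM per kilobase. Beside the same 53.1% of all gene symbols, 8 of 9 genes for turnover of E and Id proteins reached 1 CPM. Among them the ubiquitin ligase gene Huwe1 had 55.2 CPM per kilobase, Usp1, whose product removes ubiquitin from Id proteins, had 42.3, and Cdc20 and Skp2, which encode ubiquitin ligase subunits, had 21.9 and 12.3. Asb2 was lowest, at 0.0568.

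Genes through which BMP and TGF-beta signals reach Id genes were mostly counted. Among 24, 19 reached 1 CPM (list median 19.8 CPM), beside 53.1% of all gene symbols. Of these 19, 15 were called in the chi-square test, beside the 82.6% of all genes tested. Smad5, which carries BMP signals, was counted 5329, 4455 and 5296 times and had 23.7 CPM per kilobase, and the shared partner Smad4 had 23.8. Smurf2, a ubiquitin ligase gene of the pathway, had 24.7 CPM per kilobase and the co-receptor gene Eng had 21.0. Smad9 was lowest, at 0.00904 CPM per kilobase, and the receptor gene Bmpr1b had no count in any library. Ligand genes on the list had few counts: Bmp4 was counted 56, 18 and 28 times, Bmp6 14, 12 and 9 times, and Bmp2 0, 4 and 0 times.

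Lymphoid genes known as E protein targets were also counted, at very unequal levels. Among 20, 18 reached 1 CPM, beside 53.1% of all gene symbols, and the list median was 11.4 CPM. Dntt, which encodes the terminal transferase of antigen receptor rearrangement, was counted 10414, 9188 and 11181 times, or 339, 366 and 372 CPM, and had 157 CPM per kilobase. Pou2af1, a B cell coactivator gene, had 33.0 CPM per kilobase, the B cell receptor component gene Cd79b had 17.2 and Notch1, the receptor that starts T cell commitment, had 9.99. Bcl11b, a T cell commitment gene, was lowest at 0.0880 and was counted 30, 5 and 29 times. Of 12 cell cycle genes tied to E and Id proteins, 10 reached 1 CPM, beside the same 53.1%. Cdk6 and Ccnd2 had 45.8 and 34.9 CPM per kilobase, Mycn and E2f1 had 13.6 and 8.33, and Cdkn2b was lowest at 0.133, counted 17, 0 and 0 times. Cdkn2a, an inhibitor gene that E and Id proteins are known to affect in opposite directions in other cells, had no count.

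**Figure D4:**
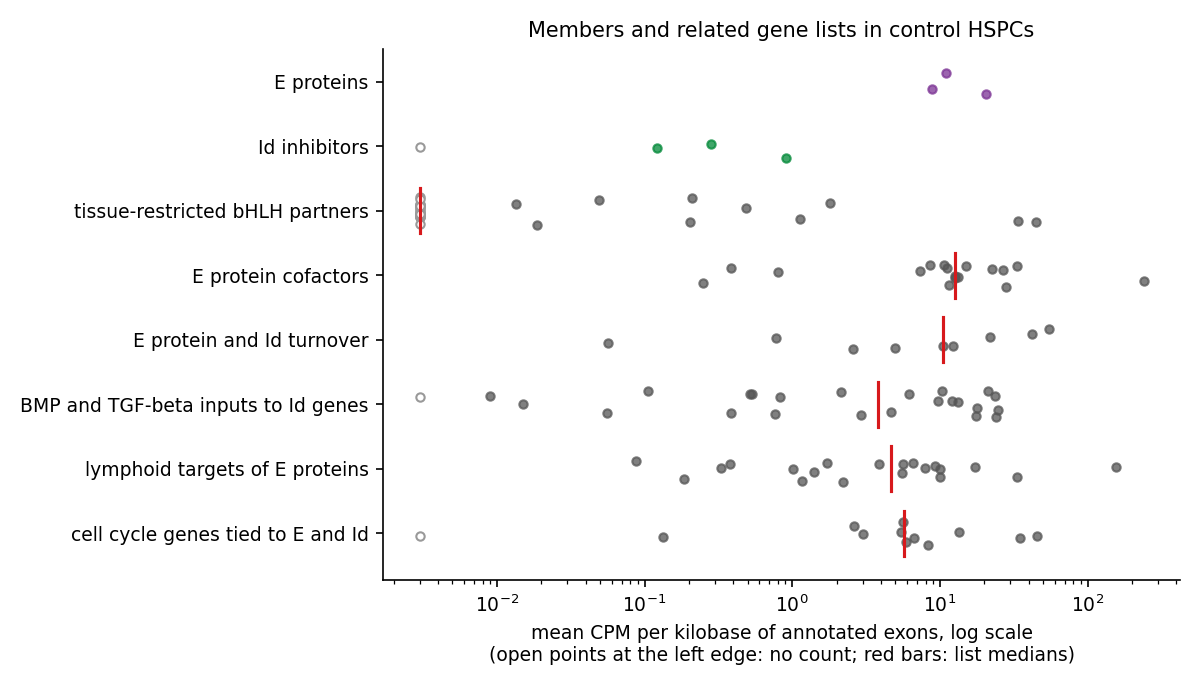
Mean CPM per kilobase of exons on a log axis, 1 point per gene, for the E protein genes, the Id genes and 6 lists of genes tied to them. Red bars are list medians and open points at the left edge had no count. The 3 E protein genes lie between 8.82 and 20.7, and 18 of 28 tissue-restricted partners lie at the left edge.

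Markers of other cells that use E and Id proteins were counted unevenly. Of all gene symbols, 53.1% reached a mean of 1 CPM. Numbers near that share, such as 6 of 10 and 5 of 10 below, do not by themselves show that such cells were present. Of 10 natural killer and innate lymphoid markers, where Id2 is known to act, 6 reached 1 CPM and the list summed to 74.3, 82.9 and 71.3 CPM. In that list Il18r1 and Zbtb16 had 5.07 and 2.61 CPM per kilobase, Rora and Il1rl1 had 1.95 and 1.13, Eomes was counted 0, 0 and 2 times, and Tbx21 had no count. Of 11 plasmacytoid dendritic cell markers, where Tcf4 is known to act, 10 reached 1 CPM and the list summed to 539, 497 and 471 CPM. The median of that list was 1.84 CPM, near the 1.73 CPM over all gene symbols. Runx2 had 48.9 CPM per kilobase, Bst2 had 19.98, Tlr7 had 9.497 and Ly6d had 6.09, while Pacsin1 was lowest at 0.222, Siglech was counted 14, 49 and 40 times and Klk1 had no count. Runx2 alone averaged 432 CPM, and it is also known in stem and progenitor cells. Of 9 T cell markers 3 reached 1 CPM, with list sums of 38.8 to 56.4 CPM. These were Lat, a signalling adaptor gene, at 26.9 CPM, Cd4 at 15.2, 5.02 and 6.69 CPM in libraries 1, 2 and 3 although the cells were sorted as lacking CD4, and Thy1 at 6.92 CPM. The T cell receptor complex genes Cd3d and Cd3e were counted 22, 0 and 36 times and 0, 0 and 2 times. Of 8 B cell markers 7 reached 1 CPM, with sums of 69.6 to 81.5 CPM, and Cd79b and Cd79a had 17.2 and 7.98 CPM per kilobase. The B cell list median was 1.85 CPM per kilobase. Cd22 was lowest at 0.137 and was counted 23, 9 and 29 times. Of 12 erythroid and megakaryocyte markers 9 reached 1 CPM, with sums of 71.0, 126 and 159 CPM in libraries 1, 2 and 3. Car1 made most of that difference, with 16.2, 61.6 and 98.6 CPM, and without it the sums were 54.8, 64.3 and 60.2 CPM. Of the rest, Pf4, Gp9 and Itga2b had 9.35, 7.38 and 4.46 CPM per kilobase, and Slc4a1 had 13.2, 1.43 and 2.46 CPM. The globin genes Hbb-b1 and Hba-a1 had no count. The annotation used here gave no length for Hbb-b1, and reads without a unique place were kept outside the gene counts. These zeros therefore do not show that globin RNA was absent. Of 12 conventional dendritic cell and macrophage markers 9 reached it, with sums of 382 to 433 CPM, most of it from Flt3, which is also an HSPC marker. Of 10 stromal and endothelial markers 5 reached it, with sums of 131 to 156 CPM, led by Pecam1 at 17.2 CPM per kilobase, and Col3a1 and Adipoq had no count.

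Genes with a level profile most like that of each E protein gene were sought among 11788 named genes, by the root mean square difference of log2(CPM per kilobase + 0.5) over the 3 libraries. Closest to Tcf3 were Cdk7 (0.03) and Eps15l1 (0.04), closest to Tcf4 were Zdhhc9 (0.03) and Ccnd1 (0.03), and closest to Tcf12 were Zwilch (0.02) and Xk (0.03). Within 0.1 of them lay 68, 74 and 76 genes for Tcf3, Tcf4 and Tcf12, against 6 for Id2, whose closest were Ccdc157 (0.03) and Masp2 (0.06). The measure takes in the level itself as well as the profile over 3 libraries.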

How the data were processed

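Per the labels' protocols, 10 ng of RNA went into NuGEN Ovation amplification (poly(A) and random primers), and libraries of 400 bp inserts were read on a HiSeq instrument. The authors deposited raw counts per gene symbol, 1 file per library, with 92 ERCC and 5 HTSeq category entries. Per the submitters' processing notes, TopHat2 2.0.9, HTSeq, DESeq2 and mm10 were used. For the gene model, strand setting and HTSeq version, the sources used here give nothing. Of all counts, 60.0% to 65.9% were in spike-in or category entries, which were left out of totals and tests.

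The 7 genes and 18 gene lists were chosen with earlier results of these data known. CPM used plain gene totals, with exact Poisson intervals at 95%. Lengths and coordinates came from GENCODE M21 (GRCm38), which gave a length for 95.8% of gene symbols. Of each 50-base word of the 7 genes, 0% to 2.08% also occurred in other genes. The variability test used edgeR with TMM factors and an intercept only. Either gene test took the genes whose mean reached 1 CPM, called at a Benjamini-Hochberg adjusted p under 0.05, and was tested on simulated data. The alternatives were other scalings, lengths, pseudocounts and expression minima, DESeq2's dispersion outliers, and each library left out in turn. ERCC scaling was added after the data were seen. Named list genes were up to 4 of the highest and the lowest counted per kilobase, members at 0 as a count with up to 3 names, and, for each of the 7 genes at 1 CPM, the 2 most similar genes. Other genes named (Cic, Rn45s, Siglech, Ngp, S100a8, S100a9, Slc4a1 and the BMP ligands) were chosen after their values were seen. Software was R 4.3.3, edgeR 4.0.16, DESeq2 1.42.0, Python 3.11.15, NumPy 2.4.6, SciPy 1.17.1, pandas 2.3.3 and Biopython 1.88.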

Additional observations from a re-analysis of the deposited data

Results flagged for a closer look

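The ERCC spike-in entries, which lie outside the gene counts used for CPM, held 1.48%, 0.954% and 0.582% relative to gene counts in libraries 1, 2 and 3, far above the level of 3 counts that a count of 0 allows. Scaled by these entries, the highest library of Tcf3, Tcf4 and Tcf12 was 2.23, 2.08 and 2.04 times the lowest, and library 3 was the highest of the 3. Whether equal amounts of spike-in were added to each library is not stated.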

How the results depend on the processing

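Scaled by ERCC counts, the log2 of library 1 over the mean of libraries 2 and 3 changed sign. It became -0.93 for Tcf3, -0.76 for Tcf4, -0.76 for Tcf12 and -0.37 for Id2, against 0.08, 0.28, 0.26 and 0.71 with gene totals. With ERCC scaling, 2 neighbouring pairs in the order had separate ranges, against 5 with gene totals. It was 4 with TMM, DESeq2 or no-Rn45s scaling, and 5 to 6 with a library left out. The order itself was the same under ERCC scaling and under each of these. The cause of the change with ERCC scaling was not tested. With the longest transcript as length, 3 pairs had separate ranges, the E protein to Id ratio was 58.0 and Tcf12 minus Tcf4 was -0.044 (log2 per kilobase). With the median coding transcript the ratio was 114, Tcf12 minus Tcf4 was -0.78 and Tcf3 minus Tcf12 was -1.35, and with the longest coding sequence these were -0.52 and -0.92; in both, Tcf4 came first and 5 pairs were separate. These changes come from the lengths alone. The edgeR variability test called 1 gene, 16 with no expression minimum, 1 to 16 when a library was left out, and DESeq2 marked 30 outliers, with no call among the genes of the set that were tested (4 with the minimum, 6 without it; Id4 was not tested). The chi-square test called 10707 genes, and 6660 to 8709 with a library left out (6660 without library 1, when Tcf4 and Id2 lost their calls; without library 3, Tcf3 lost its call). With 1 group, no samples could be paired between groups, and genes were compared with each other within libraries. Depth limits Id1 and Id3, with 29 and 19 counts over all libraries, and Id4, with 0.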
